A study of Saccharomyces cerevisiae with 6 samples.

Results

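The *SNZ* and *SNO* genes of *Saccharomyces cerevisiae* were followed in cells whose histone H2B carries the K37A change, an alanine in place of a lysine. All 6 genes of the family were sought by their names in the annotation of the array, and 4 probe sets of the 5498 tested for this species bore them, for *SNZ1* (YMR096W), *SNO1* (YMR095C), *SNZ3* (YFL059W) and *SNO3* (YFL060C). No probe set was named separately for *SNZ2* (YNL333W) or *SNO2* (YNL334C). The probe sets named *SNZ3* and *SNO3* are of the kind that Affymetrix designs for several similar transcripts, and the copies 2 and 3 are close to identical, so the signals of the subtelomeric pairs cannot be told apart. RNA came from 3 cultures of YKG001, which expresses wild-type H2B, and 3 of YKG007, which expresses H2B K37A. Both are MATa strains in which (hta1-htb1) was replaced by LEU2 and (hta2-htb2) by TRP1, with the further markers leu2D1, ura3-52, lys2D1, lys2-128d, his3D200 and trp1D63. The sole source of H2A and Flag-tagged H2B was a centromeric HIS3 plasmid, pZS145 (HTA1-Flag-HTB1) in YKG001 and pKG2 (HTA1-Flag-htb1 (K37A)) in YKG007, so each group stands for 1 strain. All cultures were grown side by side in YPD, a rich medium, to mid-exponential phase.

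Snz and Sno proteins are the subunits of the pyridoxal phosphate synthase, which makes the active form of vitamin B6. The Sno subunit is a glutaminase that frees ammonia from glutamine, and the Snz subunit uses it to build the pyridoxal ring. *SNZ1* and *SNO1* lie next to each other on chromosome XIII, are read away from a shared promoter region, and are known for induction near stationary phase and under amino acid starvation through the activator Gcn4. The other pairs lie near chromosome ends, each beside a gene of the *THI5* family, and are known to respond to the supply of thiamine, vitamin B1, whose pyrimidine part is made by that family.

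The values are log2 signals computed by RMA, 1 per probe set and array, and a difference of 1 on this scale is a 2-fold change. Strains were compared with limma, with Benjamini-Hochberg adjustment over all 5498 probe sets and a threshold of 0.05. *ACT1*, encoding actin, had 14.42 ± 0.02 in wild-type and 14.41 ± 0.0031 in H2B K37A cells (SD, n = 3 each). Its mean signal lay at percentile 99.3 of the tested probe sets, and RMA makes the distribution of signals alike on all arrays. Even values there do not check the quality of the arrays. *HTB1*, the plasmid-borne H2B gene, had 14.48 ± 0.01 and 14.42 ± 0.02. Where its probes lie relative to the mutated codon was not known here, so the signal does not check the genotype. The 95th percentile of the 1746 probe sets named outside the *S. cerevisiae* gene table, used as the background level, was 6.29, and all 4 *SNZ* and *SNO* probe sets lay above it on every array. Although the labels give histones as the source, the molecule they state is total RNA, as in the methods of the study, and RNA was assumed.

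*SNZ1* and *SNO1* were both higher in H2B K37A cells, the *SNO3* signal was lower, and the *SNZ3* signal did not pass the test. Thus 2 of 4 probe sets rose, where 6.44% of all tested probe sets did, and 1 fell, where 8.08% did. None reached a 2-fold difference, which 0.364% of the tested probe sets did. The strains did not overlap for 3 of the 4, a separation seen in 42.1% of all probe sets, with 2 of the 4 separated upward beside 20.6% of all and 1 downward beside 21.5%.

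*SNZ1*, the synthase subunit gene of the chromosome XIII pair, had log2 signals of 10.21, 10.05 and 10.10 on wild-type arrays 1, 2 and 3 and 10.58, 10.76 and 10.61 on H2B K37A arrays 1, 2 and 3. The lowest mutant array thus lay 0.36 above the highest wild-type array. The means were 10.12 ± 0.08 and 10.65 ± 0.10 (SD, n = 3 each), a rise of 0.53 or 1.44-fold (standard error, SE, 0.07, 95% confidence interval of the ratio 1.29 to 1.61, adjusted p = 0.0162 from limma). Ranked by size, this was difference number 48 from the top among all tested probe sets.

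*SNO1*, the glutaminase subunit gene beside it, had 7.35, 7.10 and 7.27 in wild type and 7.76, 7.84 and 8.10 in the mutant. Its mean signal lay at percentile 4.07 of the tested probe sets, beside 32.4 for *SNZ1*. RMA compresses signals near background, which limits what the size of its change means. The strains were again separate, by 0.41, with mutant array 3 standing highest. Its mean went from 7.24 ± 0.13 to 7.90 ± 0.18 (SD, n = 3 each), a rise of 0.66 or 1.58-fold (SE 0.10, 95% confidence interval of the ratio 1.33 to 1.87, adjusted p = 0.0203 from limma), number 20 from the top. Within the strains the pair moved together only in part. Among wild-type arrays both genes were highest on array 1 and lowest on array 2, whereas among mutant arrays *SNZ1* was highest on array 2 and *SNO1* on array 3.

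The *SNO3* probe set, read here as the glutaminase genes of the subtelomeric pairs, had 10.82, 10.83 and 10.81 on wild-type arrays and 10.61, 10.57 and 10.41 on mutant arrays. The wild-type arrays lay within a narrow band and every mutant array fell below it, array 3 the furthest. The mean fell from 10.82 ± 0.01 to 10.53 ± 0.11 (SD, n = 3 each), which is a change of -0.29 on the log2 scale (SE 0.06) or a ratio of 0.818, with a 95% confidence interval of 0.742 to 0.901 (limma, adjusted p = 0.0305).

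The *SNZ3* probe set, for the synthase subunit genes of the same pairs, had 11.12, 11.15 and 11.04 on wild-type arrays and 11.02, 11.14 and 10.88 on mutant arrays. The strains overlapped, since mutant array 2 lay above wild-type arrays 1 and 3. The log2 difference was -0.09, with an SE of 0.07, or a ratio of 0.939 (limma, adjusted p = 0.407). The 95% confidence interval of the ratio, 0.834 to 1.06, includes no change.

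**Figure D1:**
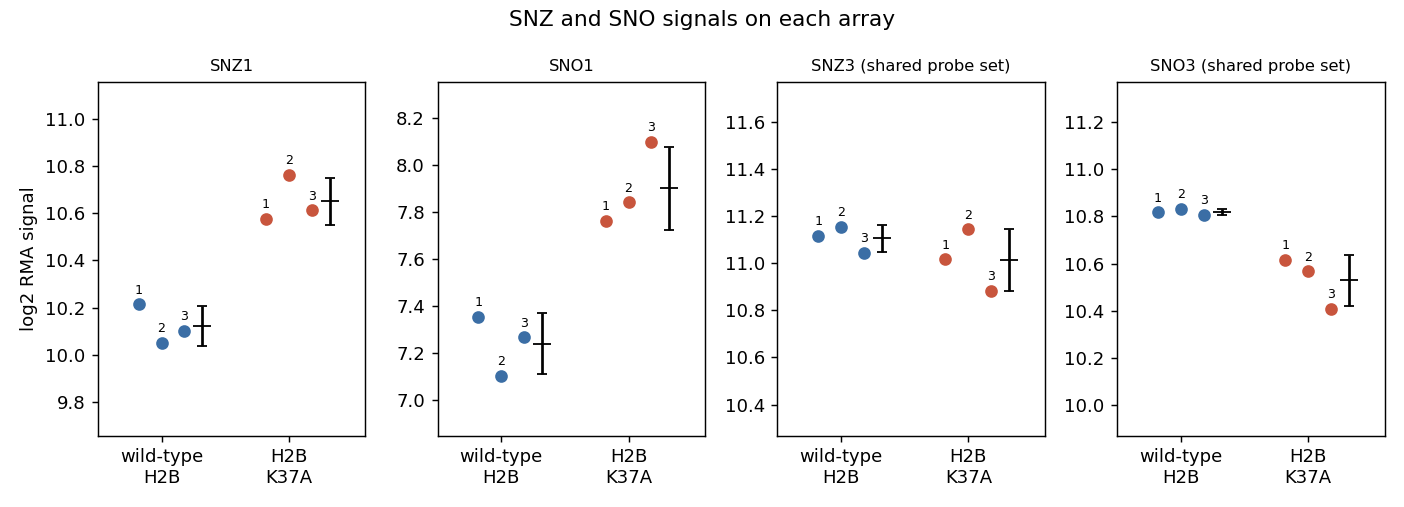
Log2 RMA signal of the 4 probe sets on each array, blue for wild-type H2B and red for H2B K37A, with replicate numbers beside the points and the mean ± SD (n = 3) in black. All panels span the same range of log2 units, and the strains are apart for *SNZ1*, *SNO1* and *SNO3* and overlap for *SNZ3*.

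With arrays left out 1 at a time, *SNZ1* passed the test in 4 of 6 settings, *SNO1* in 2 and *SNO3* in 2, and no difference changed its direction. *SNZ1* had an adjusted p of 0.0916 without wild-type array 2 and 0.0664 without mutant array 2. *SNO1* had 0.0531, 0.0937 and 0.0571 without wild-type arrays 1, 2 and 3 and 0.0745 without mutant array 2, and *SNO3* had 0.0892, 0.1035, 0.0780 and 0.0970 without the same arrays. Their log2 differences stayed within 0.47 to 0.58 for *SNZ1*, 0.56 to 0.73 for *SNO1* and -0.33 to -0.23 for *SNO3*, and over all probe sets the number passing in these settings ran from 2 to 1140, beside 798 with all arrays. Without wild-type array 1 and mutant array 3 together, tried only once the data had been seen, the differences were 0.60 for *SNZ1* and 0.62 for *SNO1* (adjusted p = 0.0432 and 0.0376 from limma) and -0.23 for *SNO3* (adjusted p = 0.0549).

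**Figure D2:**
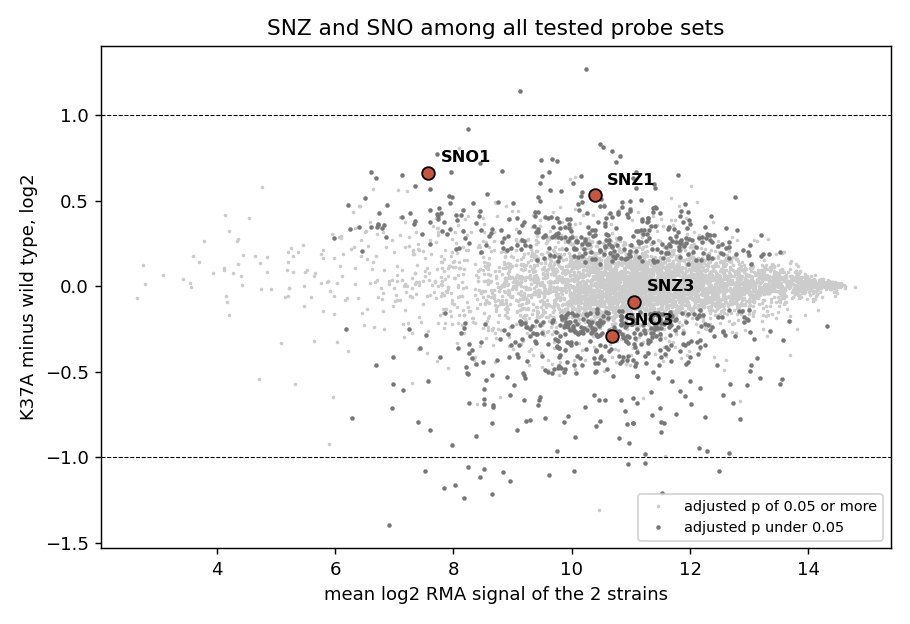
Difference between the strains (K37A minus wild type, log2) against the mean log2 signal for all 5498 tested probe sets, dark grey where the adjusted p from limma was under 0.05 and light grey otherwise, with the 4 *SNZ* and *SNO* probe sets in red. Dashed lines mark 2-fold, which none of the 4 reached, and *SNO1* and *SNZ1* lie toward the upper edge of the cloud.

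Whether the genes changed unequally was asked on each array by subtracting 1 log2 signal from another and comparing the strains with an exact two-sided permutation test, which cannot go below 0.1 with 3 arrays against 3. The rise of *SNO1* exceeded that of *SNZ1* by 0.13, with SDs of 0.06 and 0.21 between arrays of the strains, and the arrays overlapped (exact permutation p = 0.4). The change of *SNO1* exceeded that of *SNO3* by 0.95, and the change of *SNZ1* exceeded that of *SNZ3* by 0.62, with the strains apart in both cases (exact permutation p = 0.1 each, the smallest possible). Within the subtelomeric pairs the change of *SNZ3* exceeded that of *SNO3* by 0.20, also with the strains apart (exact permutation p = 0.1, a comparison chosen after the values were seen). Adjusted over the 4 comparisons, these p-values were 0.133 where the strains were apart and 0.4 for *SNO1* and *SNZ1*.

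The 3 annotated genes on each side of each pair were read next. Of these 18 neighbors 12 had a tested probe set, of which none rose, 1 fell and 11 did not pass, with a median log2 difference of -0.08 beside 0.0020 over all probe sets. A fall of 1 in 12 is near the 8.08% that fell among all probe sets. At the chromosome XIII pair the nearest genes were *CTF13*, a kinetochore subunit gene, with a log2 difference of 0.09 (adjusted p = 0.726), and *MTG1*, for a GTPase of mitochondrial ribosome assembly, with -0.11 (adjusted p = 0.192). *UTP15*, of the small subunit processome, had 0.40 (adjusted p = 0.0505), the cofilin cofactor gene *AIP1* -0.14 (adjusted p = 0.0934) and *ATP25*, a mitochondrial gene, -0.11 (adjusted p = 0.108), all from limma, while the tRNA gene YNCM0024W was not measured here. No neighbor of *SNO1* and *SNZ1* thus passed. The strains nevertheless did not overlap for *UTP15*, upward, and for *AIP1* and *ATP25*, downward. Such a separation was seen in 42.1% of all probe sets.

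Around *SNO3* and *SNZ3* on chromosome VI, the gene that passed was *AGP3*, an amino acid permease gene. It had 8.43, 8.45 and 8.40 on wild-type arrays and 8.18, 8.07 and 8.02 on mutant arrays, which is -0.34 on the log2 scale (SE 0.05; limma, adjusted p = 0.0177). It did not pass without wild-type array 1, 2 or 3 or mutant array 2 (adjusted p = 0.0598, 0.0937, 0.0513 and 0.0785). *AAD6*, a pseudogene of the aryl-alcohol dehydrogenase family, had a difference of 0.32 (adjusted p = 0.0570 from limma). Its strains did not overlap, and its direction was opposite to that of *AGP3* and *SNO3*. The probe sets named *DDI3*, *COS4* and *YFL064C* are of the shared kind and had 0.33 (adjusted p = 0.278), -0.10 (adjusted p = 0.254) and -0.06 (adjusted p = 0.693). Around *SNO2* and *SNZ2* on chromosome XIV only *AAD14*, a relative of *AAD6*, and *RPD3*, a histone deacetylase gene, had probe sets of their own name, with differences of -0.11 (adjusted p = 0.479) and 0.0014 (adjusted p = 0.981). *THI5*, *THI12*, *DDI2*, *COS1* and *YRF1-6* were not named separately.

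**Figure D3:**
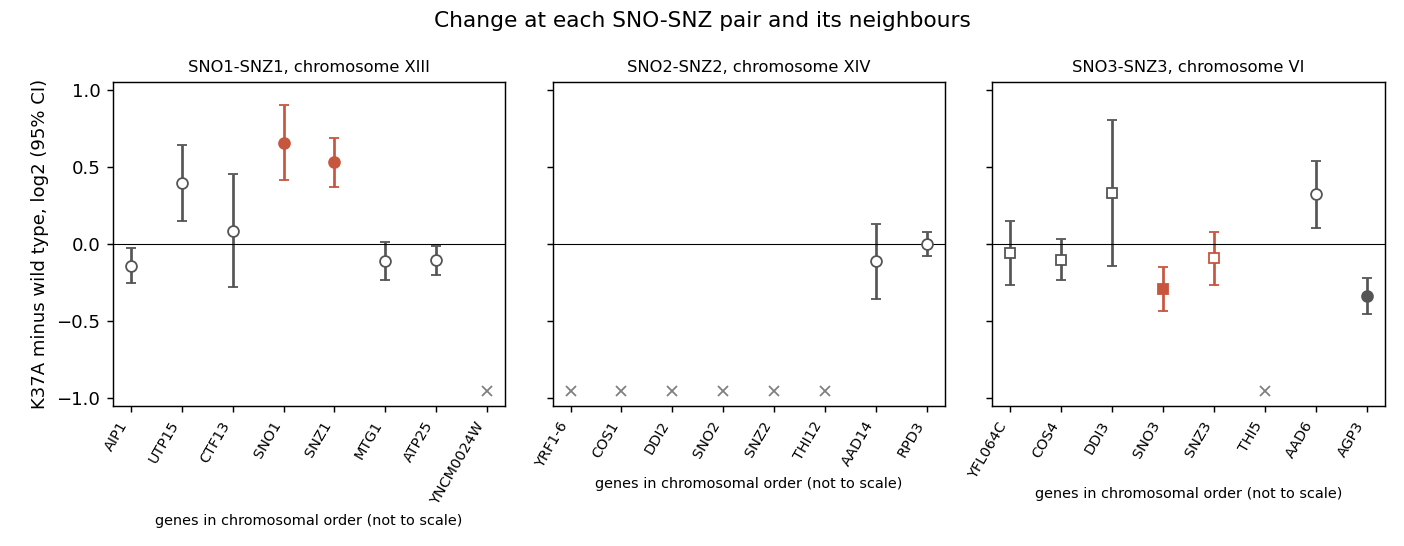
Difference between the strains (K37A minus wild type, log2, with 95% confidence intervals from limma) for each *SNO* and *SNZ* pair in red and its neighbors in grey, in chromosomal order. Filled symbols passed the adjusted p of 0.05, squares are probe sets of the shared kind, and crosses at the bottom mark genes with no probe set of their own name.

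Of 6 other genes that handle vitamin B6, 1 rose, none fell and 5 did not pass, with a median log2 difference of 0.09. The share passing, 16.7%, was near the 14.5% of all probe sets. *BUD16*, which encodes pyridoxal kinase, had 11.00, 11.07 and 11.06 on wild-type arrays and 11.18, 11.26 and 11.21 on mutant arrays. The strains did not overlap, and the rise was 0.17 or 1.13-fold (SE 0.04, adjusted p = 0.0398 from limma), a call that was kept without mutant array 1 and lost without any other array. *BUD17*, a likely second pyridoxal kinase gene, had a difference of 0.10 (adjusted p = 0.255), the pyridoxine transporter gene *TPN1* 0.08 (adjusted p = 0.141) and *PDX3*, for pyridoxamine phosphate oxidase, -0.05 (adjusted p = 0.387). *YPR127W* had 0.11 (adjusted p = 0.272) and *YBL036C*, for a protein that binds pyridoxal phosphate, 0.00081 (adjusted p = 0.992).

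Of 19 genes of thiamine synthesis, uptake and regulation 16 were measured, and 4 rose, none fell and 12 did not pass, with a median of 0.15. The 4 are 25% of the list, beside 6.44% of all probe sets that rose. *PET18*, which resembles a bacterial thiamine salvage enzyme, had 9.40, 9.32 and 9.32 on wild-type arrays and 9.66, 9.87 and 9.72 on mutant arrays, a rise of 0.40 (SE 0.06, adjusted p = 0.0193 from limma). The thiamine transporter gene *THI7* had 10.78, 10.94 and 10.60 and then 11.12, 11.12 and 11.40, a rise of 0.44 (SE 0.11, adjusted p = 0.0452 from limma). Its relative *THI72* rose by 0.41 (adjusted p = 0.0305), and *PDC2*, for an activator of pyruvate decarboxylase and thiamine genes, by 0.26 (adjusted p = 0.0439). In all 4 every mutant array lay above every wild-type array, a separation seen in 20.6% of all probe sets. It is close to given for genes picked because they passed the test. Genes of the list that did not pass, among them *THI4*, *THI21* and *THI22*, were separated in the same way. Without wild-type array 1, 2 or 3 or mutant array 2 none of the list passed, while 5 did in 1 of the other settings.

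*THI4*, which makes the thiazole part of thiamine, had 9.56, 9.44 and 9.41 and then 9.82, 10.17 and 9.72, a difference of 0.43 whose adjusted p was 0.0545 from limma. The *THI13* probe set, of the shared kind and the measured representative of the *THI5* family that adjoins the subtelomeric *SNZ* genes, had 10.73, 10.66 and 10.65 and then 10.72, 10.86 and 10.66. The strains overlapped there (difference 0.06, 95% confidence interval -0.08 to 0.21, adjusted p = 0.483). Of the kinase genes of the pyrimidine branch, *THI21* had 0.23 (adjusted p = 0.0549) and *THI20* -0.12 (adjusted p = 0.143), and their homolog *THI22* had 0.17 (adjusted p = 0.0624). *THI6*, which joins the pyrimidine and thiazole parts, and *THI80*, for thiamine pyrophosphokinase, each had 0.07 (adjusted p = 0.252 and 0.325). The regulators *THI2* and *THI3* had -0.04 (adjusted p = 0.608) and 0.11 (adjusted p = 0.132), *PHO3*, a phosphatase gene, -0.07 (adjusted p = 0.369), and the transporter genes *THI73* and *NRT1* 0.16 (adjusted p = 0.0749) and 0.14 (adjusted p = 0.192). The mean log2 signal of the 16 genes, set to an average of 0 over all arrays, was -0.07, -0.07 and -0.11 in wild type and 0.04, 0.12 and 0.09 in the mutant.

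**Figure D4:**
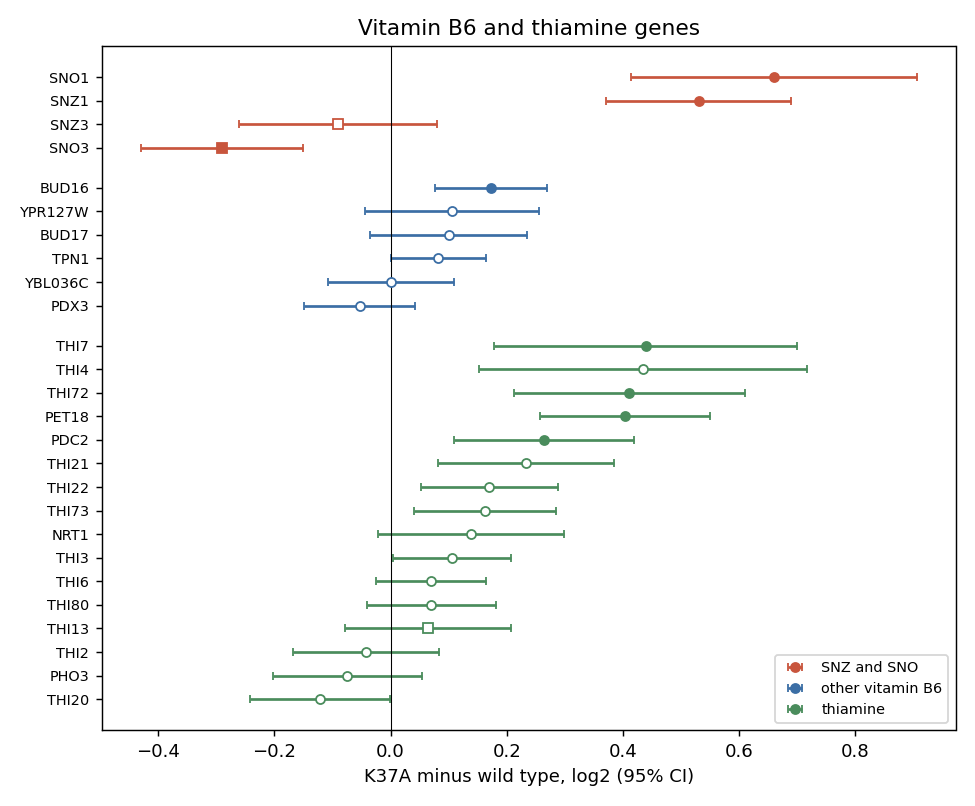
Difference between the strains (K37A minus wild type, log2) with 95% confidence intervals from limma for the *SNZ* and *SNO* probe sets, the other vitamin B6 genes and the thiamine genes. Filled symbols passed the adjusted p of 0.05 and squares are probe sets of the shared kind, and *SNO1* and *SNZ1* have the highest differences of all genes drawn.

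Pyridoxal phosphate is the cofactor of many enzymes of amino acid metabolism and of some others, such as glycogen phosphorylase. For such enzymes, of both kinds, 38 genes were read. Of these 3 rose, 2 fell and 33 did not pass, which is 13.2% passing beside 14.5% of all probe sets, with a median of 0.0096. *AAT1*, for mitochondrial aspartate aminotransferase, rose by 0.73 (adjusted p = 0.0215) and *ARG8*, for acetylornithine aminotransferase, by 0.35 (adjusted p = 0.0197), while *GPH1*, for glycogen phosphorylase, fell by 0.97 (adjusted p = 0.0278) and *SRY1*, for a hydroxyaspartate dehydratase, fell by 0.33 (adjusted p = 0.0255).

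Of 36 listed genes, *GCN4* itself and genes of amino acid synthesis, 34 were measured, and 4 rose, none fell and 30 did not pass, with a median of 0.03. The share passing was 11.8%, below the 14.5% of all probe sets, and 4 of 34 rose where 6.44% of all did. The transcript of *GCN4*, the activator of *SNZ1*, had means of 14.11 in both strains (difference 0.0038, adjusted p = 0.952 from limma). Its mean signal lay at percentile 97.6 of the tested probe sets, beside 99.3 for *ACT1*. Moreover, Gcn4 is known to be controlled mainly in translation, which the arrays do not read. *ARG8*, *SER3* and *CPA1*, of arginine and serine synthesis, rose by 0.35, 0.34 and 0.30 and *LYS21*, of lysine synthesis, by 0.18. The centered mean of the list on each array was -0.07, -0.05 and -0.0035 in wild type and 0.05, -0.03 and 0.10 in the mutant, so that the strains overlapped.

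Of 11 genes that make or use glutamine and ammonium, the substrate side of the Sno subunit, 1 rose, 1 fell and 9 did not pass, which is 18.2% passing beside 14.5% of all probe sets. The glutamate synthase gene *GLT1* rose by 0.25 (adjusted p = 0.0256) and the glutamate dehydrogenase gene *GDH2* fell by 0.34 (adjusted p = 0.0394). *GDH3*, another glutamate dehydrogenase gene, had the largest difference of the list, 0.43. Its strains were apart, but it did not pass (adjusted p = 0.0549 from limma). Of 12 stationary phase genes none rose, 2 fell and 10 did not pass, with a median of -0.06, and the 16.7% passing was near the 14.5% of all probe sets. *CTT1*, for catalase, fell by 0.53 (adjusted p = 0.0296) and *SPG1* by 0.52 (adjusted p = 0.0353). Genes that did not pass went both ways. Among them *SSA3* had 0.31, with the strains apart (adjusted p = 0.0840 from limma). *SPG4* had -0.46, with the strains overlapping (adjusted p = 0.245 from limma). The centered mean of that list on each array was 0.20, 0.03 and -0.06 in wild type and -0.05, 0.09 and -0.21 in the mutant. The strains overlapped, and mutant array 3, where the list was lowest, held the highest *SNO1* and the lowest *SNO3* and *SNZ3* signals. Mutant array 2, where the list was highest among the mutant arrays, held the highest *SNZ1* (10.76) and *SNZ3* (11.14) signals of its strain. Wild-type array 1, where the list was highest, held the highest *SNZ1* and *SNO1* signals of its strain. Other arrays did not match in this way. The list was lowest on wild-type array 3, but *SNZ1* (10.05) and *SNO1* (7.10) were lowest on wild-type array 2. That array also held the highest *SNZ3* (11.15) and *SNO3* (10.83) signals of its strain. Among mutant arrays *SNZ1* was lowest on array 1 (10.58), not on array 3. The counts of the last 4 lists fell to 0 without wild-type array 1, wild-type array 2 or mutant array 2, and to 0 or 1 without wild-type array 3, and the stationary phase count was 1 without mutant array 3. The part of culture state in the *SNZ* and *SNO* differences was not tested.

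The genes whose signals followed *SNZ1* most closely over the 6 arrays were *SEC72*, of the protein translocation channel (Pearson's r = 0.999), *FCY21*, a relative of the cytosine permease gene (r = 0.998), *TNA1*, the nicotinic acid transporter gene (r = 0.996), *YBR284W* (r = 0.995) and *SMK1*, a sporulation kinase gene (r = 0.995). Their log2 differences between strains were 0.16, 0.38, 0.12, 0.40 and 0.44, smaller than that of *SNZ1*. Those closest to *SNO1* were *HRP1*, of mRNA cleavage and export (r = 0.996), *THP2*, of mRNA export (r = 0.995), *MIL1* (r = 0.994), *CAB2*, of coenzyme A synthesis (r = 0.991), and *HIS6*, of histidine synthesis (r = 0.991). The correlations are descriptions over 6 arrays that share the strain difference.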

How the data were processed

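RNA of 3 cultures per strain was hybridized to Affymetrix Yeast Genome 2.0 arrays, 1 array per culture. The authors computed the deposited log2 signals with RMA in Affymetrix Expression Console, versions not given in the sources used here. RMA corrects background, quantile normalizes and summarizes each probe set, so a shift shared by most transcripts is removed and signals near background are compressed. Of 10928 probe sets, the 5498 matched by gene ID to R64, the *S. cerevisiae* assembly table of genes (5449 genes) were tested, with no filter. Coordinates and sequences were not used here. limma 3.58.1 in R 4.3.3 fitted strain as the only term (lmFit, eBayes), with two-sided p-values and Benjamini-Hochberg adjustment over all 5498. For genes with several probe sets the brightest stood for the gene. The 3 arrays per strain limit the precision, and the p-values measure the spread between these cultures.

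The genes and lists were chosen with earlier results of these data known. Named are the family, *ACT1*, *HTB1*, the neighbors and all vitamin B6 and thiamine genes. Of each other list up to 4 passing genes are named by size, with *GCN4*, *GDH3*, *SSA3* and *SPG4* besides. The 5 genes most like *SNZ1* and *SNO1* are named too. The fit was tried on 10 simulated data sets with 5498 probe sets and 200 changed genes. There 97.5% of the 1.5-fold changes and 99.7% of the 2-fold changes were called by limma, and 4.63% of the calls were unchanged genes. The simulated noise was normal, drawn independently for each array and probe set from the fitted variances. Such data hold no deviations shared by probe sets of an array and fewer changed genes than the 798 called here. They therefore do not give the share of false calls among those 798. Alternatives tried were testing all probe sets, a filter on low signals, renewed quantile normalization, median centering, values relative to *ACT1*, a replicate block, an intensity trend, array weights and each array left out.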

Additional observations from a re-analysis of the deposited data

How the results depend on the processing

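Apart from arrays left out, *SNZ1* and *SNO1* passed in all 8 alternatives (log2 differences 0.53 to 0.63 and 0.61 to 0.68), *SNZ3* in none, and *SNO3* in 7. With all probe sets of the array tested, *SNO3* had -0.29 with an adjusted p of 0.0621 from limma, and 281 probe sets passed in all in place of 798, with the adjustment made over 10928. With array weights 1956 passed, and the cause was not tested. Leaving out 1 array at a time gave 0.47 to 0.58 for *SNZ1*, 0.56 to 0.73 for *SNO1*, -0.16 to -0.03 for *SNZ3* and -0.33 to -0.23 for *SNO3*, and 2 to 1140 probe sets passing, with fewer arrays in each fit. The settings with 2 and 7 calls (without wild-type array 2 and without mutant array 2) had 1502 and 1435 at an unadjusted p under 0.05. Without wild-type array 1 and mutant array 3 together, chosen after the data were seen, *SNO3* had -0.23 (adjusted p = 0.0549) and 129 passed. Over the settings with 1 array left out, the thiamine list had 0 to 5 genes passing, the cofactor enzymes 0 to 6, the Gcn4 list 0 to 4, the glutamine and stationary phase lists 0 to 2 each and the other vitamin B6 genes 0 to 1. Whether replicate numbers pair the arrays was not settled. Deviations of the same number correlated at 0.40, -0.29 and 0.23 across the strains. Wild-type arrays 1 and 3 correlated best with the mutant array of the same number, and wild-type array 2 with mutant array 3 (0.36). With the replicate block 947 probe sets passed, and the adjusted p was 0.0210 for *SNZ1* (difference 0.53), 0.0203 for *SNO1* (0.66), 0.226 for *SNZ3* (-0.09) and 0.0320 for *SNO3* (-0.29). Centering arrays on their median turned the split of calls from 354 higher and 444 lower to 445 and 424. The differences between changes of genes kept their direction under renewed quantile normalization and with each array left out, *SNO1* minus *SNZ1* going down to 0.01 without mutant array 3.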

Other observations

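The array also carries a probe set named snz1, in lower case, whose gene ID is not in the *S. cerevisiae* table and which was not counted with the family. Its log2 signals were 6.74, 6.70 and 6.75 on wild-type arrays and 6.78, 6.60 and 6.67 on H2B K37A arrays, a mean of 6.71 that lay at percentile 97.4 of the probe sets named outside that table.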
